A study of Mus musculus with 8 samples.

Results

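The 9 protocadherin beta genes Pcdhb14, Pcdhb15, Pcdhb16, Pcdhb17, Pcdhb18, Pcdhb19, Pcdhb20, Pcdhb21 and Pcdhb22 were followed in tumour-associated macrophages with and without ATF3 in the host. They were taken as every non-control probe whose accession names one of these genes, which gave 13 of the 41174 probes and 9 of the 32665 genes or accessions of the array. Pcdhb18 was chosen by its difference between the WT and KO samples, among the smaller unadjusted p-values of the whole table, so that difference is a description here and carries no test. The other 8 genes were selected on their place in the same gene cluster, and the question was whether these neighbours follow Pcdhb18. In the RefSeq table of assembly GRCm38.p6 they stand in numerical order, after Pcdhb13 and before Slc25a2 and Taf7. Each gene was identified by accession, since that table also lists the name Pcdhb18 as an older name of Pcdhb21.

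All samples were macrophages sorted for F4/80 and CD45, about 21 days after PyMT breast cancer cells were implanted into the mammary tissue of C57BL/6 mice. PyMT cells carry the polyoma middle T oncogene. The WT group came from 4 samples of wild-type hosts and the KO group from 4 samples of hosts lacking ATF3, a stress-induced transcription factor. The genotype is that of the host, and the sources used here do not say how the knockout was made, which mice were pooled or what age they were. No label says that the samples came from separate animals, so the p-values cover the spread between these samples, which may be technical.

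Clustered protocadherins are cadherin-like adhesion proteins of the cell surface that are best known from neurons, where each cell switches on a few of the genes and like isoforms on touching membranes recognise each other. Every beta gene is a single coding exon with its own promoter, and the members encode similar proteins with no separate role known for each. Promoter choice depends on CTCF and cohesin, and silent members are held down by DNA methylation and by repressors such as SMCHD1 and SETDB1.

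Every array carried 1 sample in 1 colour, and its 75th percentile of processed signal lay between 619 and 926 intensity units. Levels below are log2 processed signal relative to that percentile. In each genotype, slide 1 held samples 1 and 2, and slide 2 held samples 3 and 4. The single Atf3 probe read 4.80 ± 0.21 under the WT label and 5.05 ± 0.31 under the KO label (SD, n = 4 samples per label), so it was not lower in KO. Its position relative to the deleted part was not found in the labels or files used here, so it checks neither label. The macrophage gene Adgre1, which encodes F4/80, measured 3.33 to 4.71 in the WT samples and 3.47 to 4.68 in the KO samples. Markers of tumour epithelium were also present in every sample, with Krt8, a simple epithelial keratin, at 1.63 to 4.91 in WT and 1.52 to 4.96 in KO.

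Most of the member probes were dim. Of the 13 probes, 3 were well above background on all 8 arrays, against 54.5% of all probes, and 2 were so on none. The probes seen on all arrays read Pcdhb17, Pcdhb18 and Pcdhb22. The comparison took in probes that passed that mark on 4 or more of the 8 arrays. Of the 13 probes 7 did, standing for 6 genes: Pcdhb14, Pcdhb16, Pcdhb17, Pcdhb18, Pcdhb20 and Pcdhb22. Pcdhb15, Pcdhb19 and Pcdhb21 did not enter, and a filter of this kind lets a dim gene in only through the samples where it is high.

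**Figure D1:**
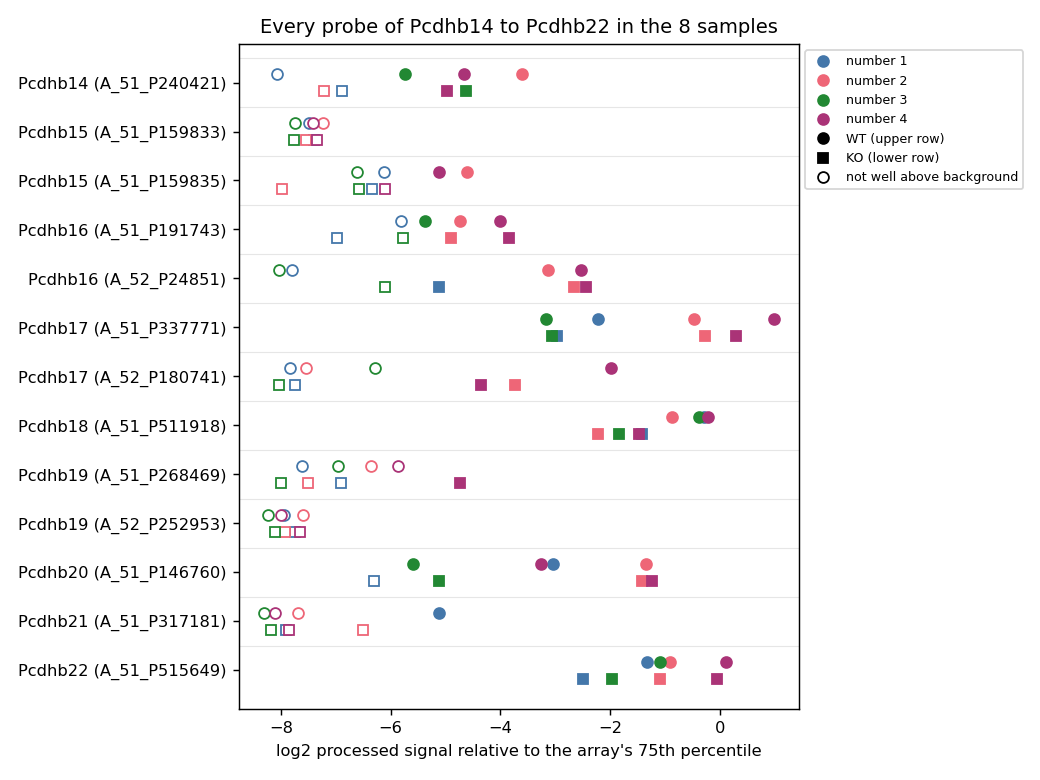
Log2 processed signal of each of the 13 member probes, relative to the array's 75th percentile, with WT samples as circles in the upper row of a probe, KO samples as squares in the lower row and colour for the sample number. Open symbols were not well above background, and 3 probes have filled symbols throughout. The Pcdhb18 probe has all KO samples to the left of all WT samples, the contrast that chose it.

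Pcdhb18 was lower in every KO sample than in every WT sample. For Pcdhb18 the WT samples 1 to 4 read −0.28, −0.88, −0.38 and −0.22, and the KO samples 1 to 4 read −1.42, −2.22, −1.83 and −1.48. WT and KO averaged −0.44 ± 0.30 and −1.74 ± 0.37 (SD, n = 4 per genotype), a log2 difference of −1.30, or 2.46-fold higher in WT. Within each genotype its levels lay close together, and the gap from the lowest WT sample to the highest KO sample separates the groups. Choice by a small p favours a narrow spread within genotypes, so that spread too is only a description.

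The separation of Pcdhb18 was also visible before scaling. The WT samples 1 to 4 gave processed signals of 509, 359, 563 and 676 intensity units, and the KO samples 1 to 4 gave 239, 199, 231 and 281. These signals were 7.96 to 26.0 times the local background of the same spot. Within the same-numbered pairs the log2 differences were −1.13, −1.34, −1.45 and −1.26, so the difference was of like size on both slides. Over all 20851 genes tested, 1.37% had every KO sample below every WT sample. Because that contrast chose Pcdhb18, nothing is read from this share. The gene has a single probe on the array, and the sequence of that probe was not used here, so whether it tells Pcdhb18 from its similar neighbours was not tested.

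The tested neighbours had overlapping genotype groups, as most genes did, so the counts below do not set them apart from other genes. Of the 5 neighbours tested, 4 were lower and 1 was higher in KO, 0 of the 5 had groups without overlap (beside 2.14% of all genes), and their median log2 difference was −0.28, beside −0.01 over all genes. With limma, 0 of the 5 had an adjusted p under 0.05, as did 0% of all genes (0 of 20851), and 0 of the 5 had an unadjusted p under 0.05, beside 3.36% of all genes.

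Pcdhb17, the gene just before Pcdhb18 in the cluster, varied widely within each genotype and little between them. WT samples 1 to 4 read −2.22, −0.47, −3.16 and 0.98, and KO samples 1 to 4 read −2.97, −0.27, −3.06 and 0.30. In both genotypes samples 2 and 4 were high and samples 1 and 3 were low. The spread from lowest to highest sample was 17.6-fold in WT and 10.2-fold in KO, against 1.58-fold and 1.74-fold for Pcdhb18. Since the choice of Pcdhb18 favoured a narrow spread, nothing is read from that contrast. The log2 difference between genotypes was −0.28 with a standard error of 1.12 and a 95% interval from −2.88 to 2.32 (limma adjusted p = 0.9999). A second Pcdhb17 probe was well above background on 3 arrays, WT sample 4 and KO samples 2 and 4, and was dim in all samples numbered 1 and 3.

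Pcdhb22, the last beta gene of the cluster, came nearest to Pcdhb18 in direction. WT samples 1 to 4 read −1.32, −0.91, −1.09 and 0.11, and KO samples 1 to 4 read −2.50, −1.09, −1.97 and −0.05. All 4 pairs of equal number had the lower value in KO, by −1.18, −0.19, −0.88 and −0.17 on the log2 scale, but the groups overlapped. Sample 4 was the highest and sample 1 the lowest in both genotypes. The log2 difference was −0.60 with a standard error of 0.56 and a 95% interval from −1.90 to 0.69 (limma adjusted p = 0.9999). Without KO sample 1 the difference was −0.24, and without KO sample 4 it was −1.05.

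Pcdhb20 ranged more widely still and had no settled direction. WT samples 1 to 4 read −3.04, −1.35, −5.59 and −3.26, and KO samples 1 to 4 read −6.31, −1.42, −5.11 and −1.23, where KO sample 1 was not well above background. Sample 3 was low and sample 2 high in both genotypes, while numbers 1 and 4 parted by genotype in opposite directions. The log2 difference was −0.21 with a standard error of 1.37 and a 95% interval from −3.37 to 2.96 (limma adjusted p = 0.9999), or −1.67 within slide 1 and 1.26 within slide 2. Leaving out single samples moved the difference from −0.97, without KO sample 4, to 0.72, without KO sample 1.

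The 2 probes of Pcdhb16 differed in sign between the genotypes. By the probe that stood for the gene, WT samples 1 to 4 read −7.80, −3.13, −8.03 and −2.53, and KO samples 1 to 4 read −5.11, −2.67, −6.09 and −2.44. It was well above background in samples 2 and 4 of both genotypes and in KO sample 1, so that the other values have no order among themselves. Its log2 difference was 1.30 with a standard error of 1.52 (limma adjusted p = 0.9999), and 0.41 without WT sample 3 or 2.24 without WT sample 4. The second probe gave −5.82, −4.73, −5.37 and −4.00 in WT and −6.98, −4.90, −5.77 and −3.84 in KO, a difference of −0.39. Both probes were highest in samples 2 and 4 of each genotype.

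Pcdhb14, the first of the listed genes, was well above background in WT samples 2, 3 and 4 and in KO samples 3 and 4. Its level was −8.06, −3.60, −5.73 and −4.66 in WT and −6.88, −7.21, −4.62 and −4.96 in KO, a log2 difference of −0.40 (standard error 1.02) (limma adjusted p = 0.9999). Without WT sample 2 the difference was 0.23, and without WT sample 1 it was −1.25.

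The 3 genes that did not enter the comparison were seen on few arrays. Of the 2 Pcdhb15 probes, 1 was well above background in WT samples 2 and 4 and in no KO sample, and the other on no array. The mean of the first probe was −5.62 in WT and −6.75 in KO. Its WT mean was 1.08 times the bound for KO, which takes on each array the higher of the probe's own signal and the lowest signal of any probe well above background. That WT mean includes samples 1 and 3, which were not well above background, so 1.08 is not a lower limit. Pcdhb19, next after Pcdhb18 in the cluster, was well above background in KO sample 4 only, by 1 of its 2 probes. Pcdhb21 was so in WT sample 1 only. For Pcdhb19 and Pcdhb21 no fold is given, since the mean of the group with the seen sample lay under the bound of the other.

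**Figure D2:**
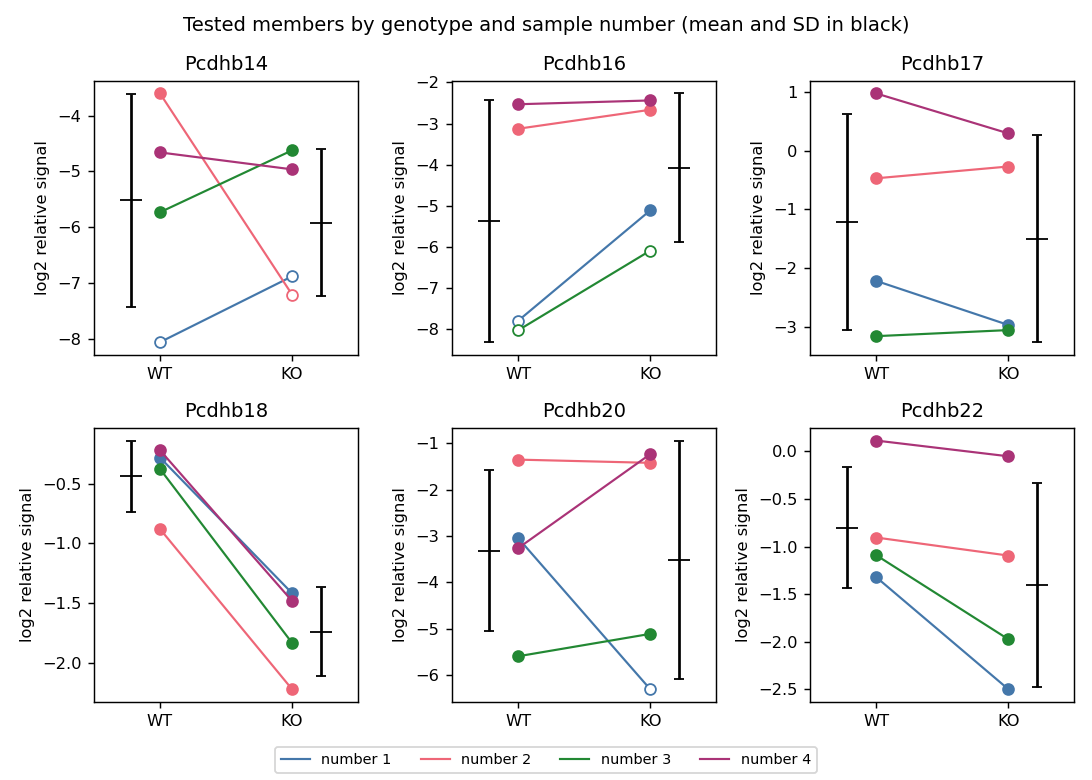
Log2 relative signal of the 6 tested members in WT and KO samples, with a line joining samples of the same number, open points where the probe was not well above background, and the group mean and SD in black. Each panel has its own vertical scale. The 4 lines of Pcdhb18 slope down, by −1.13 to −1.45, the contrast that chose it. Pcdhb17 keeps samples 2 and 4 above samples 1 and 3 on both sides.

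Pcdhb16, Pcdhb17 and Pcdhb22 each had samples 4 and 2 as the highest in both genotypes, whereas the orders of Pcdhb14 and Pcdhb20 differed between the genotypes. The number of neighbour probes well above background, of 12, was 4, 7, 5 and 8 over the WT samples 1 to 4 and 3, 6, 4 and 8 over the KO samples 1 to 4, so samples 2 and 4 had the more in both genotypes. The share of all probes well above background did not follow that order, at 65.5%, 64.2%, 67.3% and 67.5% in WT and 65.8%, 63.2%, 65.7% and 65.8% in KO. For Pcdhb17 the sample number took 97.3% of the sum of squares and genotype 0.81%. The number's share was 79.3% for Pcdhb22, 74.3% for Pcdhb20, 85.7% for Pcdhb16 and 52.2% for Pcdhb14, beside a median of 66.3% over all genes. For Pcdhb18 it was 16.1%, with 83.2% for genotype, the contrast that chose it.

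A test of the sample number with genotype in the model, added after these values had been seen, called Pcdhb17, which was well above background on all arrays (limma F test, adjusted p = 0.0231). The same test called 7.25% of all genes (1511 of 20851). Pcdhb16 had an adjusted p of 0.0492, but it entered the comparison through samples 2 and 4 and KO sample 1, where it was high, so nothing is read from that value. With no filter the limma adjusted p was 0.0455 for Pcdhb17 and 0.0843 for Pcdhb16. Pcdhb22 (adjusted p = 0.0741), Pcdhb20 (0.212) and Pcdhb14 (0.438) did not pass, nor did Pcdhb18 (0.128). Pcdhb22 passed among probes above background on all 8 arrays (limma adjusted p = 0.0410) and in the deposited table (0.0488). The Pcdhb17 call was kept without WT sample 2 (0.0440) or KO sample 2 (0.0460), and lost without any of the other 6 samples (0.0625 to 0.153) and with normexp background correction (0.0845). The Pcdhb16 value missed the threshold on leaving out any sample (0.0777 to 0.203).

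Markers of other cell types also differed widely between the sample numbers. The summed relative level of 14 tumour epithelial genes was 44.6, 93.9, 14.5 and 129.9 over the WT samples 1 to 4 and 41.7, 94.8, 14.9 and 144.3 over the KO samples 1 to 4. From highest to lowest this is samples 4, 2, 1 and 3 in both genotypes, which is also the order of Pcdhb17 in both. The summed endothelial genes and the summed protocadherins outside the clusters had that order in both genotypes too. Pcdhb22 had sample 3 above sample 1, and Pcdhb14 and Pcdhb20 had other orders. The epithelial adhesion gene Epcam measured 1.61, 2.65, −0.08 and 3.18 in WT and 1.75, 2.70, −0.05 and 3.41 in KO. The summed level of 16 macrophage genes ran the other way, at 489, 444, 578 and 289 in WT and 499, 406, 574 and 296 in KO. Fibroblast genes (12 of 12 tested) summed to 37.2, 56.9, 14.0 and 66.9 in WT and 46.8, 41.4, 16.0 and 80.9 in KO. The fibroblast order matched the epithelial one in WT only. The part of these cell types in the levels of the neighbours was not tested. In such sorted bulk samples, fewer cells of a type and less RNA per cell cannot be told apart.

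Pcdhb18 did not rank the samples as those markers do. Its order from highest to lowest was 4, 1, 3 and 2 in WT and 1, 4, 3 and 2 in KO. Its WT samples 4, 1 and 3 lay close together, at −0.22, −0.28 and −0.38. The choice of the gene favoured a narrow spread, so nothing is read from its order. The epithelial, fibroblast and macrophage sums overlapped between the genotypes, with median log2 differences over their members of 0.04, 0.10 and −0.04. Endothelial genes were lower in KO for 11 of 12 tested members (2 of the 14 listed, Tek and Erg, were never well above background), with sums of 2.98 to 12.5 in WT and 3.02 to 7.01 in KO, a median log2 difference of −0.80 and 0 members called. Cdh5, the endothelial cadherin, measured 0.36, 1.27, −0.95 and 1.82 in WT and −1.16, −0.02, −0.88 and 0.73 in KO. Neural and glial genes, the cells in which clustered protocadherins are best known, summed to 25.4 to 40.8 in WT and 18.9 to 36.4 in KO, with 8 of 12 members lower and 0 called. Among them Snap25 and Gap43 were not well above background on any array. The synaptic vesicle gene Syn1, which had the smallest unadjusted p of the list, differed by −0.64. All its KO samples lay below all its WT samples, as they did for 1.37% of all genes, while 4 neural and glial members were higher in KO. T cell genes were higher in KO for 10 of 13 members, with sums of 10.1 to 19.2 in WT and 11.3 to 22.3 in KO and 0 called. The part of any of these in the Pcdhb18 difference was not tested.

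**Figure D3:**
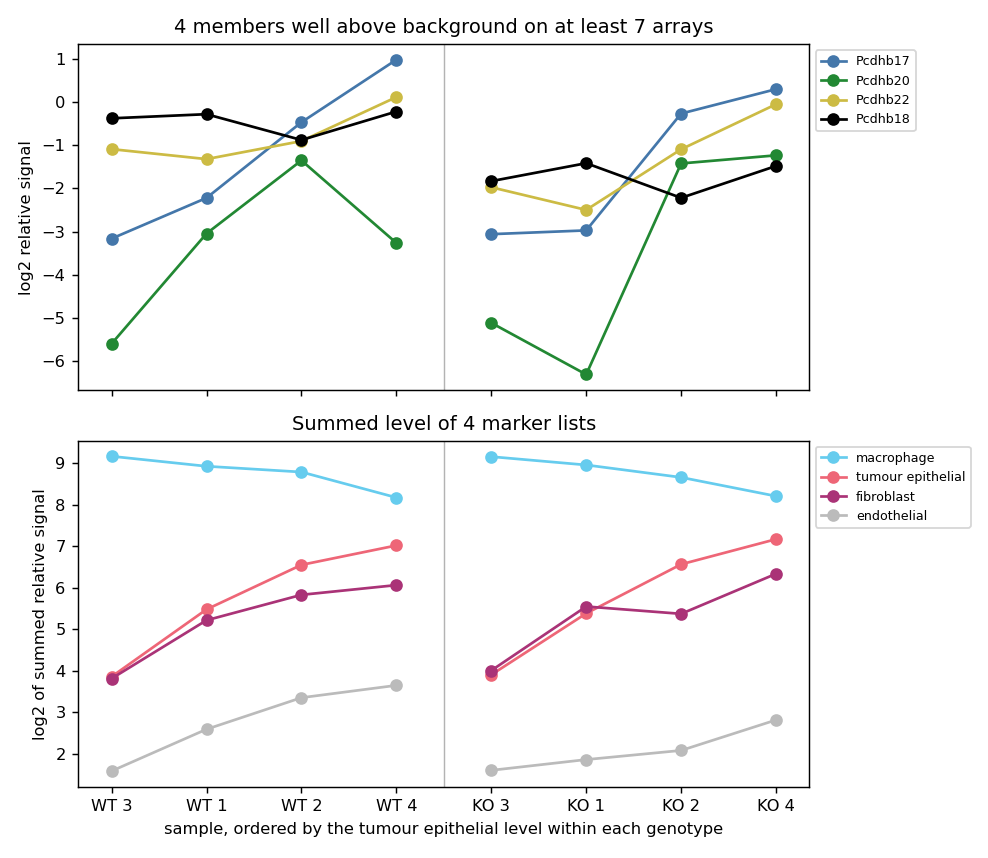
Upper panel, log2 relative signal of Pcdhb17, Pcdhb20, Pcdhb22 and Pcdhb18 by sample. Lower panel, log2 of the summed relative signal of macrophage, tumour epithelial, fibroblast and endothelial genes, with the samples of each genotype ordered by the epithelial sum. Pcdhb17 climbs with the epithelial sum in both genotypes, from −3.16 to 0.98 in WT and from −3.06 to 0.30 in KO, and the endothelial sum has the same order. Pcdhb18 stays between −0.88 and −0.22 in WT and between −2.22 and −1.42 in KO, a narrow range that its choice favoured.

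No neighbour had deviations from its genotype means that correlated with those of Pcdhb18 past the threshold. This was computed for the 3 neighbours well above background on at least 6 arrays, over 8 samples, with an exact two-sided permutation within genotype (576 arrangements, smallest p 0.00174) and Benjamini-Hochberg adjustment over the 3. For Pcdhb17 Pearson's r was −0.16 (exact p = 0.715, adjusted 0.977) and Spearman's rho 0.12 (exact p = 0.809, adjusted 0.877). For Pcdhb20 r was −0.48 (exact p = 0.304, adjusted 0.911) and rho −0.31 (exact p = 0.491, adjusted 0.877). For Pcdhb22 r was 0.03 (exact p = 0.977, adjusted 0.977) and rho −0.07 (exact p = 0.877, adjusted 0.877). Without WT sample 2 and KO sample 2, which lie farthest from the median of Pcdhb18, r was 0.47, 0.26 and 0.25, so the negative values rest on those samples. Same-numbered samples deviate together, so the 8 points are not fully independent, and within slides there are 2 samples per genotype, too few for a value.

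The width of the intervals limits what can be said of the neighbours. Without a block, the 95% interval of each of the 5 neighbours contained 0. With the sample number as a block, which compares samples of the same number, the interval ran from −0.88 to 0.32 for Pcdhb17 and from −1.21 to −0.0004 for Pcdhb22, while those of Pcdhb14 (−2.79 to 1.98) and Pcdhb20 (−2.57 to 2.16) stayed wide. For Pcdhb16 it ran from −0.03 to 2.62. In the blocked fit 1 of the 5 neighbours, Pcdhb22, passed before adjustment, as did 7.57% of all genes, and 0 passed after it (limma adjusted p = 0.659 for Pcdhb22). As Pcdhb18 was chosen for its size, its difference from the neighbours was not tested.

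**Figure D4:**
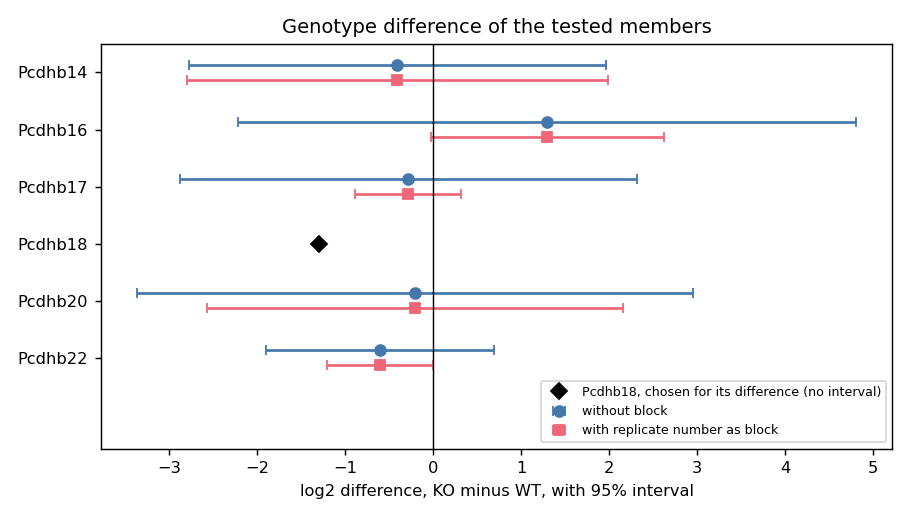
Log2 difference, KO minus WT, of the 6 tested members with its 95% interval, without a block (circles) and with the sample number as a block (squares), and with the Pcdhb18 value as a point with no interval, since it chose the gene. All unblocked intervals of the neighbours span 0, and those of Pcdhb16, Pcdhb17, Pcdhb20 and Pcdhb22 are narrower with the block.

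The remaining beta genes gave the same picture of dim probes. Of Pcdhb1 to Pcdhb13, read by 15 probes, 5 genes entered the comparison, 3 higher and 2 lower in KO with a median log2 difference of 0.32, and 0 were called. The number of all 28 beta probes well above background was 6, 12, 12 and 16 over the WT samples 1 to 4 and 6, 11, 10 and 16 over the KO samples 1 to 4. Pcdhb5, the only one of the 5 above background on all arrays, measured −5.15, −3.83, −4.20 and −3.83 in WT and −5.50, −3.57, −4.98 and −3.75 in KO, with sample 1 the lowest of each genotype. Pcdhb7 was dim in sample 1 of both genotypes and highest in sample 4, at −1.92 in WT and −1.36 in KO.

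The alpha and gamma clusters lie to either side of the beta cluster and build their proteins from variable exons joined to shared constant exons. In the alpha cluster, 3 of the 4 genes on the array were tested and all 3 had values lower in KO, with log2 differences of −0.50 for Pcdhac2, −0.60 for Pcdha6 and −0.42 for Pcdha9, none of them called (limma adjusted p = 0.9999 each). The Pcdhac2 value is that of its brightest probe. Another Pcdhac2 probe, also well above background on all arrays, gave −0.10, with pairs 1 to 4 at 3.05, −4.68, −0.46 and 1.68. A further probe, well above background on 2 arrays, gave 0.30. In the gamma cluster, 4 of 5 genes were tested and 0 called. Pcdhga9, well above background on all arrays, measured 1.47, 2.30, 1.59 and 2.83 in WT and 1.12, 2.07, 1.36 and 2.77 in KO by its brightest probe. Samples 2 and 4 were again the highest in both genotypes (limma F test of the sample number, adjusted p = 0.0340). Another Pcdhga9 probe had the same order. A dimmer one, also well above background on all arrays, had samples 2 and 4 highest in WT but 4 and 1 in KO, with a log2 difference of 0.22. A further probe was well above background on no array. The other gamma genes did not pass that test, with limma adjusted p of 0.0818 for Pcdhga1, 0.424 for Pcdhga4 and 0.588 for Pcdhga7, and Pcdhga1 was highest in samples 3 and 4. By its brightest probe, Pcdhga9 differed between the genotypes by −0.22 with a standard error of 0.45.

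Genes beside the cluster and its known regulators were not called either. Of the 10 flanking genes tested, 6 were lower and 4 higher in KO, with a median log2 difference of −0.03. Taf7, which encodes a subunit of the general transcription factor TFIID, differed by −1.15 with a standard error of 0.60. Its WT samples 1 to 4 read −2.71, −2.95, −3.99 and −3.34. Its KO samples 1 to 4 read −6.13, −4.23, −3.87 and −3.34, so the difference leans on KO sample 1. Taf7 was well above background on 4 WT arrays and 3 KO arrays. The other flanking genes lay between −0.13 for Diaph1 and 0.66 for Fchsd1. Of the 15 regulators tested, 9 were lower and 6 higher, with a median of −0.02. Lrif1, a partner of SMCHD1, differed by 0.95 with a standard error of 0.36, and no regulator passed (limma adjusted p = 0.9999 each). Among the other regulators with the smaller unadjusted p, the DNA methyltransferase genes Dnmt3a and Dnmt3b differed by −0.31 and 0.44, the cohesin subunit gene Stag1 by 0.30, the co-repressor gene Trim28 by 0.23 and the cohesin release factor gene Wapl by −0.35.

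The genes most like Pcdhb18 within the genotypes came from elsewhere in the table. Over the 8 samples, with each genotype mean removed, the highest Pearson correlations among 20850 genes were 0.988 for the transcript AK134499, 0.984 for BC034290, 0.983 for the probe A_52_P139439, 0.979 for Oga, which encodes the enzyme that removes O-linked N-acetylglucosamine, and 0.979 for Jmjd4, a JmjC-domain protein. The best of so many genes over 8 samples is high by selection, so these values are a description. AK134499, BC034290 and A_52_P139439 were well above background on 6 arrays, Oga on 8 and Jmjd4 on 7. Their differences between the genotypes were 0.36, −0.37, 0.26, −0.05 and 0.24. As Pcdhb18 was chosen for its difference, nothing is read from setting these against it. In the same ranking the 5 neighbours stood between place 10608, for Pcdhb22, and place 19272, for Pcdhb20. Of them, Pcdhb14 and Pcdhb16 were well above background on only 5 arrays.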

How the data were processed

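Gene expression was measured on 8 arrays, 4 WT and 4 KO, with genotype and number from the sample titles. Per the file headers, the authors extracted 1-colour Agilent scans with Agilent Feature Extraction 10.7.1.1 on build mm9, whereas version 10.5 is the one in the submitters' processing notes. The deposited files give each spot's processed intensity beside its median and background intensity. A table of processed values was also deposited, whose normalization no label or header used here names. It is on a linear scale, its column medians lie at 92 to 94, and it served as an alternative.

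Of 45018 spots, 43379 were not controls. Spots marked as outliers were dropped, the log2 values of replicate spots averaged, and each array's 75th percentile subtracted. Probes well above background on at least 4 arrays (27118 of 41174) were kept, and the brightest stood for its gene (20851 genes). Accessions named 25097 probes by RefSeq (GRCm38.p6), while 16077 stayed under the name in the files. WT and KO were tested two-sided in R 4.3.3 with limma 3.58.1 (lmFit, eBayes), adjusting over all genes by Benjamini-Hochberg, and the steps were tested on simulated data. The number of arrays limits the precision.

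Same-numbered WT and KO samples deviated together, with correlations of 0.30, 0.14, 0.70 and 0.51 across genes for numbers 1 to 4, each over the 0.1 required. WT sample 2 with KO sample 4 gave 0.15, and WT sample 4 with KO sample 2 gave 0.14. For number 2 the values therefore do not set the same-numbered pair apart from pairs of unlike number. The labels do not say what a number shares.

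The genes, lists and tests were chosen with earlier results of these data known. By the rule for naming genes, the text names all 9 members, up to 4 kept genes of each other protocadherin cluster by level, up to 6 regulators and 3 genes per cell type list by smallest unadjusted p, all flanking genes, the 5 genes most like Pcdhb18, and Atf3 and the sort markers. Of these, some are given as counts only. Krt8, Epcam, Cdh5, Snap25, Gap43, Tek and Erg are named besides, after their values were seen. No probe or promoter sequence was used here.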

Additional observations from a re-analysis of the deposited data

How the results depend on the processing

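The difference of Pcdhb18 kept its sign and moved by less than the spread between replicates under every alternative: −1.13 with normexp background correction (offset 50), −1.28 after quantile normalization, −1.17 in the deposited table, −1.24 and −1.36 on slides 1 and 2, and −1.44 to −1.14 on leaving out 1 sample. All these settings reuse the samples whose difference chose Pcdhb18, so that steadiness is only a description. No neighbour was called in any setting. Blocking on the replicate number left the differences as they were, 0 genes were called as without it, and it changed no call of a member. The count of genes called was 0 in every setting except on leaving out 1 sample (0 to 1, the 1 without KO sample 1).

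Directions of the neighbours changed with the setting. Pcdhb16 gave −0.43 with normexp, which moved the median of all genes from −0.01 to −0.13, and −0.39 by its second probe. Pcdhb20 gave 0.046 in the deposited table and 1.26 on slide 2, and Pcdhb14 gave 0.40 on slide 2. On leaving out 1 sample Pcdhb20 ranged from −0.97 to 0.72, Pcdhb14 from −1.25 to 0.23 and Pcdhb17 from −0.93 to 0.45. Pcdhb22 stayed below 0 in all 19 alternatives run for it. Of these, the blocks, the other filters and the eBayes options left its difference at −0.60 by design, and the rest reuse the same samples. The correlation of Pcdhb22 with Pcdhb18 was −0.087 after quantile normalization, −0.032 in the deposited table, −0.18 with slide as a block and −0.25 with the replicate number as a block, and ranged from −0.36 to 0.40 on leaving out 1 sample, while that of Pcdhb17 ranged from −0.43 to 0.081. With the replicate number as a block, where the values rest on 4 pair differences, it was −0.85 for Pcdhb17, against −0.16 without the block, and −0.59 for Pcdhb20. None of these correlations had an adjusted p under 0.05, and no p was computed with the replicate block. The count of genes called between sample numbers, 1511, was 357 with normexp, 427 without a filter, 2703 with probes above background on all 8 arrays and 0 to 669 on leaving out 1 sample, which leaves fewer residual degrees of freedom. The neighbours among them, 2, became 0 with normexp, 1 without a filter, 1 with each probe on its own 0 to 1 on leaving out 1 sample, and 3 in the deposited table, where 2192 genes were called. The cause of the other changes was not tested. Signals close to background limit what can be read of Pcdhb14, Pcdhb15, Pcdhb16, Pcdhb19 and Pcdhb21.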

Other observations

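Protocadherins outside the clusters, which are encoded singly across the genome, were likewise not called. Of 12 listed genes, 7 were tested, 6 lower and 1 higher in KO with a median log2 difference of −0.32, and 0 had a limma adjusted p under 0.05. Pcdh19, named after its values were seen, differed by −0.41 with a standard error of 0.17, and all its KO samples lay below all its WT samples, as they did for 1.37% of all genes. Pcdh7, also named after its values were seen, differed by −1.78 with a standard error of 0.90, and was well above background on 4 WT arrays and 1 KO array.

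Of 8 genes for cytoplasmic partners and actin regulators linked to clustered protocadherins, 7 were tested, 4 lower and 3 higher in KO, with a median log2 difference of −0.11 and 0 called. The largest of these values was that of Ptk2, which encodes focal adhesion kinase, at −0.70 with a standard error of 0.32, and it too was named after its value was seen.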
